A study of Mus musculus with 21 samples.

Results

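The comparison described here is loss of the histone methyltransferase gene Dot1l in LSK cells, a fraction of mouse bone marrow sorted as negative for lineage markers and positive for Sca-1 and Kit, which holds stem cells and multipotent progenitors. It rests on 12 of the 21 arrays of the series, 6 of control LSK cells and 6 of Dot1l-deleted LSK cells, and covers every gene that the arrays name. The members are these 12 LSK arrays, taken by the cell type and genotype given in the sample labels. All mice were C57/BL6 and carried the Mx-Cre transgene, and all were injected with pIpC. Controls were Dot1 wt/wt x Mx-Cre, so they share the transgene and the injection with the deleted group. The other mice were Dot1l fl/fl x Mx-Cre, in which pIpC induced biallelic deletion of Dot1l. Age, sex and the time from injection to sorting remain not given in the sources used here. The remaining 9 arrays are of granulocyte-macrophage progenitors (GMP) of the same genotypes, 5 control and 4 deleted, and enter only the test of whether an effect differed between the cell types. Nothing in the labels ties an array to its own animal, and the p-values therefore reflect only the scatter among these samples, which may be technical.

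DOT1L is the enzyme that methylates a lysine in the core of histone H3 on the bodies of transcribed genes, and it acts together with proteins of the AF9, AF10 and ENL families. In leukaemias driven by MLL fusion proteins it is recruited to the HoxA cluster and Meis1, whose expression depends on it. Mx-Cre is driven by an interferon-responsive promoter, and pIpC, a double-stranded RNA analogue, induces it in haematopoietic cells and in other interferon-responsive tissues. LSK cells are rare, give little RNA, and express genes of several lineages at low levels before they commit. The LSK fraction is itself a mixture, and on bulk arrays fewer cells of a type and less RNA per cell cannot be told apart.

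Arrays K1272 and K1359, both Dot1l-deleted, stood apart before any gene was considered. Array K1272 had Spearman correlations of 0.628 to 0.677 with the other 11 LSK arrays, while all other pairs of LSK arrays lay between 0.903 and 0.980. Its upper quartile of log2 values was 6.185, against 6.60 to 6.76 on the controls and 6.70 to 6.78 on the other 5 deleted arrays. Array K1359 was of ordinary quality by these measures. With K1272 left out, its position on the first principal component, which held 21.9% of the variance, was -52.35. The controls lay between -51.86 and 21.2 and the other 4 deleted arrays between 17.84 and 47.22. K1359 therefore lay just outside the lower end of the controls, on the side away from its own group. Control K1602 stood apart on the second component, at -89.52 against -7.43 to 35.26 on the other 10 arrays. Every result below was computed with and without each of these arrays. K1359 was named for leaving out because it resembled controls on these same values, so a fit without it is partly fixed by that choice and is given as a description, not as independent support.

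**Figure D1:**
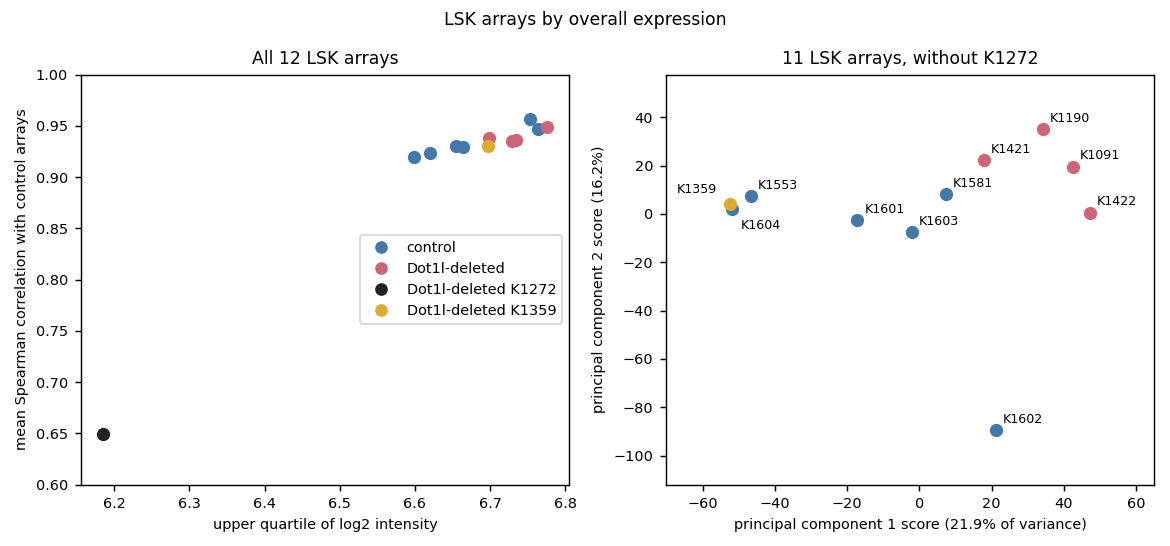
The plot of array quality and position shows, on the left, the upper quartile of the log2 values of each of the 12 LSK arrays against its mean Spearman correlation with the control arrays and, on the right, the first 2 principal components of the 11 LSK arrays other than K1272. Points are arrays, coloured by genotype. K1272 lies alone at an upper quartile of 6.185 and a mean correlation of 0.6495, and K1359 lies at -52.35 on the first component beside the controls K1604 and K1553.

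Sex-linked genes differed between the arrays of each group. Xist, the RNA that silences the inactive X chromosome in females, was above 12 on controls K1601, K1602 and K1553 and on deleted arrays K1359 and K1421, and between 4.17 and 5.42 on the 3 other controls and on deleted K1091, K1190 and K1422. K1272 had 9.24. Control K1601 was high for Xist, at 12.67, and also for the Y-linked genes Kdm5d, at 6.91, and Eif2s3y, at 7.32. Control K1602 combined Xist at 12.71 with Eif2s3y at 7.57. Among the 4 deleted arrays other than K1272 and K1359, only K1421 was high for Xist. Markers of mature cells also varied within the control group. The 24 late neutrophil genes had mean levels, relative to the control average, of 2.21 on K1581 and 0.51 on K1601 and of -1.23 on K1604 and -1.11 on K1553. The 18 B lineage genes ranged from -0.43 to 0.57 over controls and -0.35 to 0.16 over deleted arrays, and the 24 T and NK cell genes from -0.29 to 0.20 and -0.17 to 0.80, where the highest value in each case was that of control K1581 and deleted K1272.

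The targeted gene itself was read by 2 probe sets, and the genotypes overlapped on both. The lowest, median and highest log2 levels of the brighter Dot1l probe set were 6.08, 6.44 and 6.93 in controls and 5.95, 6.32 and 7.01 in deleted arrays, a log2 fold change of -0.10 ± 0.21 (SE) with an adjusted p of 0.96. The dimmer had 5.29, 6.28 and 6.65 in controls and 5.12, 5.89 and 7.15 in deleted arrays. Whether the deletion covers these probe sets remains not given in the sources used here. Such levels therefore check nothing about the genotype labels.

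Of the list called sort markers, Kit and Cd34 were bright in controls and Slamf1 was dim. Among its measured genes, only Kit is named above as a marker by which LSK cells were sorted. Kit, the stem cell factor receptor by which the cells were sorted, had lowest, median and highest log2 levels of 8.57, 9.07 and 9.93 in controls, and Cd34 had 9.98, 10.20 and 10.48. Ly6a, which encodes Sca-1, had no probe set with a single gene symbol and was not analysed. Slamf1, a marker of the most primitive stem cells, had 3.35, 3.59 and 4.43, below the 25th percentile of gene levels, 4.07, in its median control. After deletion Kit was 5.0 on K1272, 9.96 on K1359 and 7.58 to 8.80 on the other 4 arrays. The low Kit value of K1272 was shared by Cd34, at 5.20 against 9.52 to 10.38 on the other 4 arrays and 9.95 on K1359, and by the surface protein gene Cd48, at 4.61 against 10.09 to 10.99 and 8.94. On this array Kit, Cd34 and Cd48 were thus lower than on any other LSK array. Leaving out K1272 and K1359, Kit had a log2 fold change of -0.93 ± 0.30 with an adjusted p of 0.225, and Cd34 of -0.16 ± 0.18 with 0.786. Higher over 12 arrays were 2 of the 9 measured genes of this list, the Fc gamma receptor genes Fcgr2b and Fcgr3. Fcgr2b had 4.07, 6.15 and 8.12 in controls, 7.78 to 8.46 on the 4 other deleted arrays, 6.85 on K1272 and 6.98 on K1359. Its fold change was 1.69 ± 0.64 over 12 arrays (adjusted p 0.815) and 2.11 ± 0.73 over 10 (adjusted p 0.263). Its 4 other probe sets were also higher, and Fcgr3 was 0.41 ± 0.38 over 12 arrays.

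Over all 12 arrays no single gene passed the test, and the calls that appeared depended on which arrays entered. Limma's moderated test, adjusted by Benjamini-Hochberg over 18194 genes, called 0 genes at an adjusted p under 0.05 (0% of genes), with a smallest adjusted p of 0.474. At an unadjusted p under 0.05 there were 518 higher genes (2.85%) and 448 lower genes (2.46%). In 34 genes (0.187%) all 6 deleted arrays lay above all 6 controls, and in 26 genes (0.143%) they lay below. Without K1272 the test called 1 gene (0.0055%), Shmt2. Without K1359 it called 0 genes (0%), with a smallest adjusted p of 0.0614. Without both arrays it called 90 genes (0.495%), of which 67 were higher (0.368%) and 23 lower (0.126%), and 1521 genes (8.36%) were higher and 781 (4.29%) lower at an unadjusted p under 0.05. Over all genes the median fold change on the log2 scale was 0.0598 over 12 arrays and -0.0155 over the 10 arrays.

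The 90 calls had limits that bear on each gene below. Of the 90 genes, 88 had the same direction over all 12 arrays and 60 had an unadjusted p under 0.05 there. They were picked on 10 of these same 12 arrays, so this likeness is largely fixed by the choice and is no check on the calls. K1359 lay inside the control range for 40 of the 90 and nearer to the controls than to the other deleted arrays for 80. K1272 did so for 20 and 51. The count was 0 without control K1601, 0 without deleted K1091, 1 without deleted K1190 and 162 without control K1602, and it was 0 when Xist entered the fit as a covariate, with a smallest adjusted p of 0.0552. Array weights in place of leaving arrays out gave 36 calls over 12 arrays, of which 26 were among the 90. In what follows "12 arrays" names the test on all arrays and "10 arrays" the test without K1272 and K1359, and fold changes are deleted minus control on the log2 scale with their standard errors. Where 3 log2 levels are given for a group they are its lowest, median and highest array. The counts of list members are to be read against those of all genes, of which 10627 were higher over 12 arrays and 8648 over 10.

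The genes with the smallest p over 12 arrays include metabolic, mitotic and lymphoid genes. They were picked for their small p, so their separation is a description. Shmt2, the mitochondrial serine hydroxymethyltransferase that feeds carbon from serine into folate metabolism, had lowest, median and highest levels of 10.19, 10.33 and 10.47 in controls and 11.15, 11.27 and 11.78 in deleted arrays. All 6 deleted arrays lay above all controls, with K1272 at 11.78 and K1359 at 11.17. The fold change was 1.01 ± 0.16 over 12 arrays (adjusted p 0.474), 0.92 without K1272 (adjusted p 0.0322), 1.05 without K1359 (adjusted p 0.0954) and 0.95 ± 0.11 over 10 arrays (adjusted p 0.0204), and its 3 other probe sets were also higher. Fdps, which makes farnesyl pyrophosphate in the cholesterol pathway, had 4.31, 4.61 and 5.20 in controls and 5.65, 6.37 and 7.71 in deleted arrays. Again no deleted array overlapped the controls, and K1272 and K1359 were the lowest of the 6, at 5.76 and 5.65. The estimated fold change was 1.79 ± 0.32 over 12 arrays (adjusted p 0.474) and 2.16 ± 0.28 over 10 (adjusted p 0.0204). The other Fdps probe set was higher over 12 arrays but not over 10, so this difference rests on 1 probe set.

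Emc8, a subunit of the membrane protein complex of the endoplasmic reticulum, Snrpb, a core protein of the spliceosome, Pprc1, a PGC-1-related coactivator, and the stress kinase gene Mapkapk2 were likewise higher on all 6 deleted arrays. Emc8 had levels of 7.03, 7.46 and 8.57 in controls and 8.81, 9.28 and 11.46 after deletion, where K1272 was far above the rest, and its fold change was 1.96 ± 0.43 over 12 arrays and 1.58 ± 0.30 over 10 (adjusted p 0.0635). Snrpb had 8.66, 8.91 and 9.47 in controls and 9.65, 10.003 and 10.58 after deletion, with a fold change of 1.04 ± 0.22. Pprc1 had 7.17, 7.97 and 8.17 in controls and 8.42, 8.92 and 9.68 after deletion, with a fold change of 1.09 ± 0.24. None of these 4 was called over 12 or over 10 arrays. The carbonic anhydrase gene Car12 lay above all controls on 5 of 6 deleted arrays, with a fold change of 2.12 ± 0.45, and it was highest on K1359, at 8.36.

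Among lower genes, Bcl11a, a transcription factor needed for lymphoid development, had lowest, median and highest levels of 9.98, 10.16 and 10.48 in controls and 8.73, 8.94 and 9.75 in deleted arrays. The groups did not overlap, although K1359, at 9.75, was closest to the controls. The fold change was -1.14 ± 0.20 over 12 arrays (adjusted p 0.474), -1.28 without K1359 (adjusted p 0.0614) and -1.24 ± 0.14 over 10 arrays (adjusted p 0.0204). Only 4 of its 6 other probe sets were lower over 12 arrays, and 4 over 10. Tnfrsf13c, which encodes the BAFF receptor, had 9.08, 9.65 and 9.996 in controls and 6.54, 8.06 and 8.73 after deletion, again without overlap. The fold change came to -1.66 ± 0.34 over 12 arrays and -1.51 ± 0.24 over 10 (adjusted p 0.0315). Fmo5, a flavin monooxygenase gene, had 5.09, 6.58 and 7.66 in controls and 3.46, 4.25 and 4.92 after deletion, and here K1359 was the lowest array of all, at 3.46. Its fold change of -2.32 ± 0.39 had the second smallest p of the 12-array test, but it was not called over 10 arrays (adjusted p 0.0763), and only 1 of its 2 other probe sets was lower. Heg1, a receptor of endothelial and blood cells, had 5.87, 6.37 and 6.83 in controls and 4.72, 5.41 and 5.77 after deletion without overlap, with a fold change of -1.06 ± 0.22. The subunit gene of interleukin-12, Il12a, had 8.43, 8.70 and 9.47 in controls and 6.89, 7.56 and 8.27 after deletion, also without overlap, with a fold change of -1.23 ± 0.26 (12 arrays) and -1.40 ± 0.26 (10 arrays, adjusted p 0.0504).

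The HoxA cluster, which sustains self-renewal of stem cells, was lower on 5 of the 6 deleted arrays as a mean over its 9 measured genes. That mean, relative to controls, was -0.90 on K1091, -1.73 on K1190, -0.59 on K1421, -0.78 on K1422 and -0.91 on K1272, against -0.076 to 0.084 on controls, and 0.02 on K1359. How many of its genes were lower depended on K1272. In the 12-array test 5 of 9 genes were lower and 4 higher, 4 of the lower ones at an unadjusted p under 0.05, and the median fold change was -0.38, or -0.17 without K1272, -0.77 without K1359 and -0.61 over 10 arrays. Without K1272 all 9 genes were lower and 0 higher, 3 at an unadjusted p under 0.05, and over 10 arrays 8 were lower and 1 higher, 4 of the lower ones at that threshold. Leaving out probe sets with the suffixes _s_at, _x_at and _a_at turned the median to 0.027, and without control K1581 it was -0.038. Hoxa9, the member most tied to leukaemia, had lowest, median and highest levels of 9.37, 10.15 and 10.48 in controls and 3.49, 7.26 and 10.03 after deletion. K1359 was 10.03, inside the control range, the other 4 arrays were 6.43 to 8.54, and K1272 was 3.49. The fold change was -2.89 ± 0.83 over 12 arrays (adjusted p 0.582) and -2.69 ± 0.39 over 10 (adjusted p 0.0221).

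Hoxa3 had 9.03, 9.95 and 10.99 in controls and 2.58 to 8.81 on the 4 other deleted arrays, with 10.43 on K1359, a fold change of -2.84 ± 1.09 over 12 arrays and -3.05 ± 1.07 over 10 (adjusted p 0.264). Hoxa10 had 4.43, 5.66 and 6.54 in controls, 3.49 to 5.07 on the 4 other deleted arrays and 6.03 on K1359, with a fold change of -1.08 ± 0.48 over 12 arrays and -1.60 ± 0.43 over 10 (adjusted p 0.144). The dimmer Hoxa4 was lower on K1359 too, at 3.48 against 3.69, 4.14 and 5.57 in controls, with a fold change of -0.92 ± 0.32, but its 1 other probe set was not lower over 12 or 10 arrays. Only Hoxa9 of the 9 was called over 10 arrays. The HoxB cluster, the other Hox cluster active in these cells, had no common direction. Its median was 0.037 over 12 arrays and -0.24 over 10, a sign that turned with the arrays used and with the upper quartile as a covariate (-0.03). Hoxb4, which expands stem cells when overexpressed, was -0.78 ± 0.30 over 12 arrays (unadjusted p 0.0235), and its 1 other probe set was likewise not lower over either set of arrays.

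Targets of MLL fusion proteins outside the Hox clusters were mostly lower. Of 19 measured genes 18 were lower over 12 arrays, 6 at an unadjusted p under 0.05, and the median fold change was -0.70, or -0.50 without K1272, -0.91 without K1359 and -0.55 over 10 arrays, where 16 were lower and 9 had an unadjusted p under 0.05. Mecom, a transcription factor of long-term stem cells, had levels of 7.36, 7.94 and 8.49 in controls, 3.72 to 7.10 on the 4 other deleted arrays, 3.85 on K1272 and 8.52 on K1359, which exceeded every control. Its fold change was -2.27 ± 0.76 over 12 arrays and -2.52 ± 0.64 over 10 (adjusted p 0.124), but only 1 of its 2 other probe sets was lower. Mecom and Meis1 are also in the list of stem cell transcription factors. Meis1, the homeodomain partner of HoxA proteins, was likewise above every control on K1359, but deleted K1421, at 7.65, lay inside its control range. It measured 7.47, 8.69 and 9.30 in controls, 5.10 to 7.65 on the 4 other deleted arrays, 5.85 on K1272 and 9.72 on K1359, with a fold change of -1.59 ± 0.67 over 12 arrays and -2.05 ± 0.53 over 10 (adjusted p 0.128). Eya1, a transcriptional coactivator, was also below the control median on K1359, at 6.63 against 5.85, 7.51 and 9.44 in controls, and on 3 deleted arrays below all of them, with a fold change of -1.54 ± 0.52. Flt3 was the only member called over 10 arrays. It is the cytokine receptor of multipotent progenitors on the way to lymphoid and dendritic cells, and it is shared with the lymphoid, dendritic and cytokine receptor lists. Its levels were 9.52, 10.23 and 10.57 in controls, 6.38 to 8.89 on the 4 other deleted arrays, 5.51 on K1272 and 10.02 on K1359, with a fold change of -2.53 ± 0.63 over 12 arrays and -2.59 ± 0.42 over 10 (adjusted p 0.035).

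**Figure D2:**
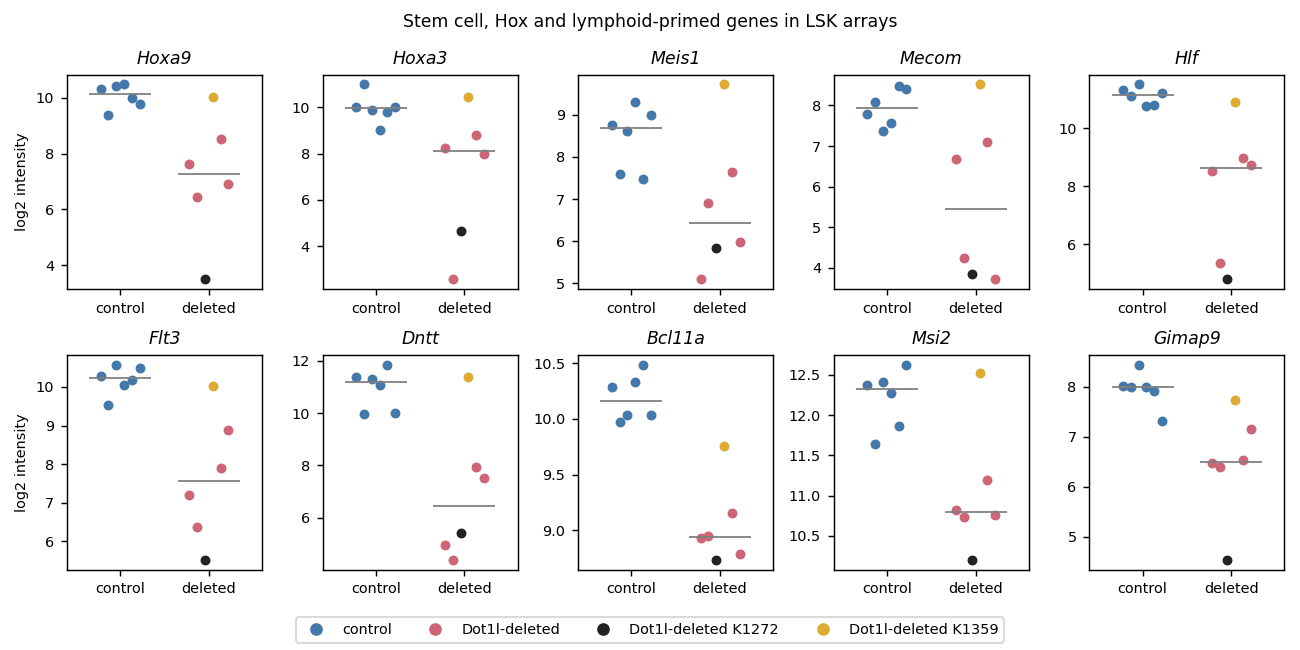
The plot of lower genes shows the log2 level of Hoxa9, Hoxa3, Meis1, Mecom, Hlf, Flt3, Dntt, Bcl11a, Msi2 and Gimap9 on each of the 12 LSK arrays, with the group medians as lines and K1272 and K1359 marked. For Hoxa9, Flt3 and Dntt the 4 other deleted arrays and K1272 lie below all controls, while K1359 lies among the controls.

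Transcription factors of stem cells were lower on average, with Hlf and Msi2 ahead. Of 29 measured factors 23 were lower over 12 arrays, 8 at an unadjusted p under 0.05, with a median of -0.93, and over 10 arrays 27 were lower, 9 of them at that threshold, with a median of -0.55 (-0.50 without K1272 alone and -1.03 without K1359 alone). Hlf, a stem cell factor of the PAR leucine zipper family, had levels of 10.77, 11.16 and 11.52 in controls and 5.36 to 8.98 on the 4 other deleted arrays, which did not overlap. K1272 had 4.80 and K1359 10.90, inside the control range. The fold change was -3.24 ± 0.87 over 12 arrays and -3.22 ± 0.62 over 10 (adjusted p 0.0667). Msi2, an RNA-binding protein that maintains stem cells, had 11.64, 12.33 and 12.62 in controls, 10.73 to 11.19 on the 4 other deleted arrays and 12.52 on K1359. It was called over 10 arrays, at -1.32 ± 0.20 (adjusted p 0.0306), and was -1.16 ± 0.34 over 12, with 5 of its 7 other probe sets lower. Gata2, a stem and mast cell factor, was lower by less, with a fold change of -0.74 ± 0.28 over 12 arrays and -0.999 ± 0.26 over 10 (adjusted p 0.131).

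Surface markers of stem cells did not all run the same way. Of 30 markers 23 were lower over 12 arrays, 7 at an unadjusted p under 0.05, and the median was -0.49, or -0.41 without K1272, -0.49 without K1359 and -0.41 over 10 arrays. Gcnt2, a glycosyltransferase, had 10.69, 11.42 and 11.94 in controls, 8.81 to 9.85 on the 4 other deleted arrays, 4.85 on K1272 and 11.52 on K1359, and was called over 10 arrays at -2.04 ± 0.27 (adjusted p 0.0204). Pdzk1ip1, a membrane-associated protein gene enriched in stem cells, was called at -2.23 ± 0.32 (adjusted p 0.0221). On K1272 it was 9.64, above all controls, whose levels were 7.89, 8.94 and 9.56. The adhesion receptor gene Adgrg1 was lower without a call, at -1.21 ± 0.41 over 12 arrays, and the orphan receptor gene Gpr171 was -1.41 ± 0.46. Procr, which encodes the stem cell marker EPCR, was -0.62 ± 0.24 over 12 arrays (unadjusted p 0.0237) and -0.64 ± 0.27 over 10. Thy1, a surface protein of T cells and of the more primitive LSK cells, ran the other way. Its levels were 4.26, 6.52 and 7.67 in controls, 8.38 to 9.41 on the 4 other deleted arrays, 9.33 on K1272 and 5.69 on K1359, with a fold change of 2.05 ± 0.66 over 12 arrays and 2.50 ± 0.54 over 10 (adjusted p 0.0843). The T and NK cell list as a whole had a median of 0.055 over 12 arrays and -0.19 over 10.

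Genes of lymphoid priming, which multipotent progenitors express before lymphoid commitment, were mostly lower, though not on every deleted array. Their mean level, relative to controls, was -0.82 on K1091, -1.13 on K1190, -0.68 on K1421 and -1.61 on K1272. On K1422, at -0.33, and on K1359, at 0.11, it lay inside the control range of -0.54 to 0.44. Of 26 genes 21 were lower over 12 arrays, 7 at an unadjusted p under 0.05, with a median of -0.52. Over 10 arrays 10 had an unadjusted p under 0.05 and 3 were called, namely Bcl11a, Dntt and Flt3, with a median of -0.43 (-0.28 without K1272 alone and -0.78 without K1359 alone). Dntt, which encodes terminal deoxynucleotidyl transferase, had levels of 9.96, 11.18 and 11.83 in controls, 4.39 to 7.94 on the 4 other deleted arrays, 5.42 on K1272 and 11.37 on K1359. Except on K1359, the enzyme's transcript was below every control. The estimated fold change was -3.99 ± 0.99 over 12 arrays (adjusted p 0.518) and -4.72 ± 0.72 over 10 (adjusted p 0.0306), and both other probe sets were lower. Lax1, an adaptor of lymphocyte signalling, was 4.59, 6.51 and 7.11 in controls and 4.22, 4.51 and 5.22 after deletion, which overlapped through control K1553. The fold change came to -1.68 ± 0.37 over 12 arrays, and without that control it was called, at -2.01 with an adjusted p of 0.0432. Il7r, the receptor gene of committed lymphoid progenitors, had 2.66, 3.88 and 5.99 in controls and 2.61, 3.47 and 6.30 after deletion, with a fold change of -0.16 ± 0.80 that turned positive when single arrays were left out.

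Gimap GTPases, small guanine-nucleotide-binding proteins of lymphocytes, were lower in 7 of 8 measured genes over 12 arrays, 2 of them at an unadjusted p under 0.05. Their median fold change was -0.97 over 12 arrays, -0.86 without K1272, -1.21 without K1359 and -1.20 over 10. Gimap9 had 7.32, 7.997 and 8.43 in controls, 6.38 to 7.15 on the 4 other deleted arrays and 7.73 on K1359, and was called over 10 arrays at -1.31 ± 0.22 (adjusted p 0.0386). Gimap6 had 9.20, 10.01 and 10.78 in controls and 5.56 to 9.42 on the 4 other deleted arrays, with 10.37 on K1359 and a fold change of -1.83 ± 0.68 over 12 arrays. Beside these, B lineage markers had a median of 0.06, with 1 of 18 lower at an unadjusted p under 0.05, and the part of admixed lymphocytes in these results was not tested.

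**Figure D3:**
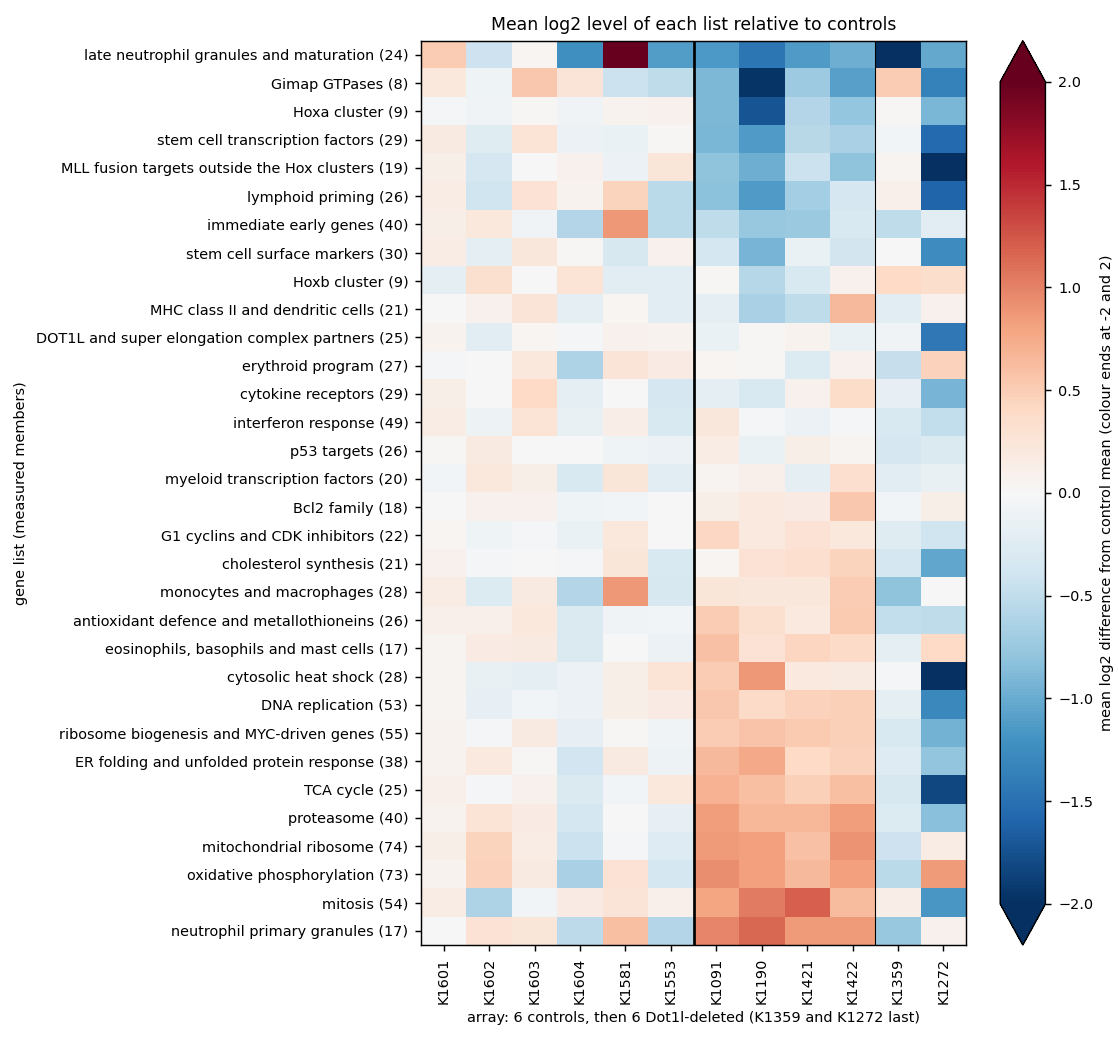
The plot of list levels shows, for each array, the mean log2 level of each described gene list relative to the control mean. K1359 is 0.02 for the Hoxa cluster, inside the control range of -0.08 to 0.08, and is the lowest array for late neutrophil genes, at -2.19, while K1272 is -1.16 for mitosis, where the 4 other deleted arrays are 0.63 to 1.20.

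Primary granule genes of neutrophil precursors were higher, while genes of neutrophil maturation were lower. Primary granules are filled at the promyelocyte stage, before the late granules of maturing neutrophils. Of 17 measured primary granule genes 13 were higher over 12 arrays, 5 at an unadjusted p under 0.05 and none lower at that threshold, with a median of 0.61. Over 10 arrays 15 were higher, 10 at that threshold, with a median of 0.93 (0.63 without K1272 alone and 0.89 without K1359 alone), and 4 were called. The mean over the list was 0.85 to 1.16 on the 4 other deleted arrays, -0.75 on K1359 and 0.08 on K1272, against -0.59 to 0.60 on controls.

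Ctsg, the granule protease cathepsin G, had lowest, median and highest levels of 8.58, 10.28 and 10.71 in controls, 12.10 to 12.63 on the 4 other deleted arrays, 10.85 on K1272 and 9.65 on K1359. Its fold change was 1.59 ± 0.53 over 12 arrays and 2.28 ± 0.39 over 10 (adjusted p 0.0386). Mpo, which encodes myeloperoxidase, was bright in all arrays, at 12.22, 12.63 and 12.70 in controls and 13.21 to 13.36 on the 4 other deleted arrays, and the difference was small, 0.50 ± 0.19 over 12 arrays and 0.71 ± 0.12 over 10 (adjusted p 0.0386). Ms4a3, a membrane protein gene of granulocyte-monocyte progenitors, had 5.96, 6.57 and 7.15 in controls and 8.48 to 9.74 on the 4 other deleted arrays. It was below all controls on K1272, at 5.37, and on K1359, at 4.75, so its fold change of 2.65 ± 0.31 over 10 arrays (adjusted p 0.0204) was 1.26 ± 0.83 over 12. Prtn3, or proteinase 3, had 6.66, 7.79 and 8.96 in controls, 9.34 to 10.38 on the 4 other deleted arrays, 11.44 on K1272 and 7.0 on K1359, with a fold change of 1.95 ± 0.64 over 12 arrays and 2.22 ± 0.44 over 10 (adjusted p 0.0719). Clec5a, a receptor of myeloid cells, had 4.08, 4.44 and 5.64 in controls and 5.23, 5.85 and 6.82 after deletion, with K1091, K1272 and K1359 inside the control range and the other 3 above it, and a fold change of 1.34 ± 0.34. The fourth called gene was Cst7, an inhibitor of granule proteases, at 1.53 over 10 arrays (adjusted p 0.0204).

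Late neutrophil genes lay below the control mean on every deleted array, K1359 and K1272 included, but the controls themselves spread widely. Of 24 genes 21 were lower over 12 arrays, 9 at an unadjusted p under 0.05, with a median of -1.23, or -1.20 without K1272, -0.99 without K1359 and -1.01 over 10 arrays, where none was called and 8 were lower at an unadjusted p under 0.05. Without control K1581 the median was -0.62. The mean level was -1.45 to -0.98 on the 4 other deleted arrays, -2.19 on K1359 and -1.03 on K1272, and controls ranged from -1.23 to 2.21. Controls K1604 and K1553 thus lay among the deleted arrays. S100a9, a subunit of calprotectin, had 10.82, 12.28 and 14.08 in controls and 8.30, 9.43 and 10.65 after deletion, without overlap, and a fold change of -2.77 ± 0.59 (adjusted p 0.479). Ltf, or lactoferrin, had 7.23, 9.46 and 12.52 in controls and 5.51, 6.14 and 7.25 after deletion, with a fold change of -3.36 ± 0.72. Cd177, a neutrophil surface protein, had 4.25, 7.68 and 10.83 in controls and 3.59, 4.08 and 5.30 after deletion, and the granule protein gene Ngp 8.48, 10.96 and 12.79 in controls and 6.73, 8.29 and 9.55 after deletion. Neutrophils lack the sorted phenotype, and the part of admixed mature cells in these levels was not tested.

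Transcription factors of the myeloid lineages showed no common shift, with a median of 0.1 over 20 genes, a sign that turned with a filter on dim genes and without control K1553. Cebpa, the factor that starts granulocyte development, had 6.42, 7.80 and 10.01 in controls, 9.40 to 9.74 on the 4 other deleted arrays, 11.32 on K1272 and 7.88 on K1359, with a fold change of 1.71 ± 0.63 (unadjusted p 0.0175). Cebpd, a relative, was 0.90 ± 0.32 and the repressor gene Gfi1, which opposes monocyte genes, was -1.62 ± 0.73, where K1272, at 3.84, was far below the other 4, at 7.93 to 8.88. Among genes of eosinophils, basophils and mast cells, Mcpt8, a basophil protease, had 4.77, 4.99 and 7.01 in controls and 5.31, 6.88 and 8.17 after deletion, with a fold change of 1.40 ± 0.49. Ms4a2, a chain of the high-affinity IgE receptor, was 0.85 ± 0.31. Prg2, the major basic protein gene of eosinophils, had the opposite sign, with 4.65, 5.39 and 7.71 in controls, 3.54 to 4.09 on the 4 other deleted arrays, 3.26 on K1359 and 6.39 on K1272. All deleted arrays but K1272 lay below all controls, and the fold change was -1.52 ± 0.60 over 12 arrays, -1.96 without K1272 (adjusted p 0.291) and -1.82 ± 0.54 over 10 (adjusted p 0.186). The list itself had 4 of 17 genes higher and 2 lower at an unadjusted p under 0.05 over 12 arrays, and 5 higher and 2 lower over 10. Its median of 0.26 became -0.0079 over 10 arrays. The list mean was 0.30 to 0.58 on the 4 other deleted arrays, 0.40 on K1272 and -0.20 on K1359, against -0.29 to 0.17 on controls. Monocyte and macrophage genes had a median of 0.12 over 28 genes, or -0.066 without K1272, and MHC class II and dendritic genes had a median of 0.069 over 21, or -0.04 with the upper quartile as a covariate.

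Erythroid genes showed no common shift. Their median was 0.048 over 27 genes, and its sign turned without K1272, at -0.16. The carbonic anhydrase gene Car2, which is on in stem cells as well as red cells, was called over 10 arrays. Its levels were 11.85, 12.33 and 12.49 in controls, 10.78 to 11.69 on the 4 other deleted arrays and 12.39 on K1359, and its fold change was -1.13 ± 0.20 (adjusted p 0.0435).

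Genes of mitosis were higher as a list, although by list mean K1272 lay below all controls and K1359 inside their range. Of 54 genes 45 were higher over 12 arrays, 7 at an unadjusted p under 0.05 and none lower at that threshold, with a median of 0.46. The median was 0.74 without K1272, 0.52 without K1359 and 0.91 without both, where 53 were higher, 26 of them at an unadjusted p under 0.05, and 5 were called. The mean of the list was 0.63 to 1.20 on the 4 other deleted arrays, 0.14 on K1359 and -1.16 on K1272, against -0.62 to 0.26 on controls. The promoters of 3 of the 4 mitosis genes that head this list are shown because many cell-cycle genes carry CCAAT boxes and the CHR element TTTGAA near their starts. Each is the 150 bases before the annotated start, on the plus strand, from RefSeq on GRCm38.p6, with capitals marking CCAAT (or ATTGG) and TTTGAA (or TTCAAA) on either strand. Matches of the 2 motifs can share at most 1 base.
Ube2c, chr2:164769779-164769928: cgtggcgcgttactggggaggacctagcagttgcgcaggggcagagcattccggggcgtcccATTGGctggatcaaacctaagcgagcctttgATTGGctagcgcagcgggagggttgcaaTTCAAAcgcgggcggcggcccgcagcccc
Bub1b, chr2:118598061-118598210: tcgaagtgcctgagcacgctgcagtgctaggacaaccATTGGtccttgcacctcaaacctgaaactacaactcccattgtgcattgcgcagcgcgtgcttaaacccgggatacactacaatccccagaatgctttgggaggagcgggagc
Nek2, chr1:191821323-191821472: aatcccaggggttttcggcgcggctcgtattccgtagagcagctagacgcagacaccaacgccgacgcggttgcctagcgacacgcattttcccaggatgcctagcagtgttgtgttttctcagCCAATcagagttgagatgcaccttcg
The Ube2c promoter held 2 CCAAT letters and 1 TTTGAA, and those of Bub1b and Nek2 held 1 CCAAT each. CCAAT occurred in 34 of the 46 mitosis promoters found in the table (73.9%), against 6828 of 27025 promoters of the same length (25.3%). TTTGAA occurred in 15 of the 46 (32.6%) against 2498 (9.2%). A match of letters is a description of the sequence and was not tied to binding here.

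Ube2c, the ubiquitin-conjugating enzyme of the anaphase-promoting complex, had lowest, median and highest levels of 8.82, 9.81 and 10.36 in controls and 10.37, 11.32 and 11.56 after deletion. All 6 deleted arrays were above all controls, K1359 only just, at 10.37. The estimated fold change was 1.43 ± 0.28 over 12 arrays (adjusted p 0.479) and 1.57 ± 0.27 over 10 (adjusted p 0.0411). Bub1b, a kinase of the spindle checkpoint, had 5.99, 6.72 and 7.17 in controls and 7.09, 8.43 and 8.91 after deletion, where K1359, at 7.09, alone overlapped the controls. The fold change came to 1.57 ± 0.31 over 12 arrays and 1.69 ± 0.25 over 10 (adjusted p 0.0221), and of its 2 other probe sets 1 was higher over 10 arrays. Nek2, a centrosome kinase, was high on K1359, at 8.55, and lowest on K1272, at 7.13, against 6.77, 6.997 and 7.82 in controls, with a fold change of 0.90 ± 0.29. Incenp, a subunit of the chromosomal passenger complex, had 10.15, 10.93 and 11.35 in controls and 11.76 to 12.13 on the 4 other deleted arrays, and was 1.08 ± 0.22 over 10 arrays (adjusted p 0.0719). Besides Ube2c and Bub1b, the called members of the list were the Aurora kinase genes Aurka, at 1.22, and Aurkb, at 1.22, and the cyclin gene Ccna2, at 1.11. The centromere gene Cenpi, outside the list, had 3.66, 4.13 and 4.92 in controls and 4.86, 5.56 and 5.79 after deletion. It was called over 10 arrays, at 1.42 ± 0.25 (adjusted p 0.0456). Ercc6l, a helicase of anaphase bridges and also outside the list, was called over 10 arrays at 2.03 ± 0.27 (adjusted p 0.0204). Over 12 arrays it was 1.40 ± 0.43. K1272, at 6.09, and K1359, at 6.74, lay inside its control range of 5.97 to 6.87.

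DNA replication genes were higher as a list where K1272 was left out. Over 12 arrays the median of 53 genes was -0.011, near that of all genes, and its sign turned under several alternatives, at 0.07 with the upper quartile as a covariate. It was 0.22 without K1272, 0.062 without K1359 and over 10 arrays 0.40, with 45 higher, 17 of them at an unadjusted p under 0.05. The mean of the list was 0.39 to 0.54 on the 4 other deleted arrays, -0.19 on K1359 and -1.29 on K1272, against -0.16 to 0.16 on controls. Cdc6, which loads the replicative helicase, was the called member, at 0.81 (adjusted p 0.0277). Orc5, an origin recognition subunit, had 4.69, 4.83 and 5.61 in controls and 5.44, 5.96 and 7.32 after deletion, with a fold change of 1.24 ± 0.33 over 12 arrays and 1.57 ± 0.32 over 10 (adjusted p 0.0719). The helicase cofactor gene Gins3 was 1.27 ± 0.41. Ccne1, the cyclin of the G1 to S transition, had 5.43, 6.62 and 6.86 in controls and 7.21 to 8.17 on the 4 other deleted arrays, with 6.24 on K1359 and a fold change of 1.05 ± 0.34.

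Single p53 targets were called over 10 arrays, in opposite directions. The median of 26 genes was 0.029 and its sign turned under quantile normalization and with the upper quartile as a covariate. Trp53inp1, a p53-induced protein of the stress response, had 8.78, 9.39 and 9.52 in controls, 7.06 to 8.53 on the 4 other deleted arrays and 8.96 on K1359, and was called over 10 arrays at -1.51 ± 0.27 (adjusted p 0.0471). Sesn1, a sestrin, was lower without a call, at -1.16 ± 0.33. Pmaip1, the proapoptotic BH3 protein Noxa, had 3.36, 3.66 and 4.52 in controls and 4.87 to 6.37 on the 4 other deleted arrays, while K1272 and K1359, at 3.65 and 3.54, lay inside the control range. It was called over 10 arrays at 1.93 ± 0.30 (adjusted p 0.0306).

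**Figure D4:**
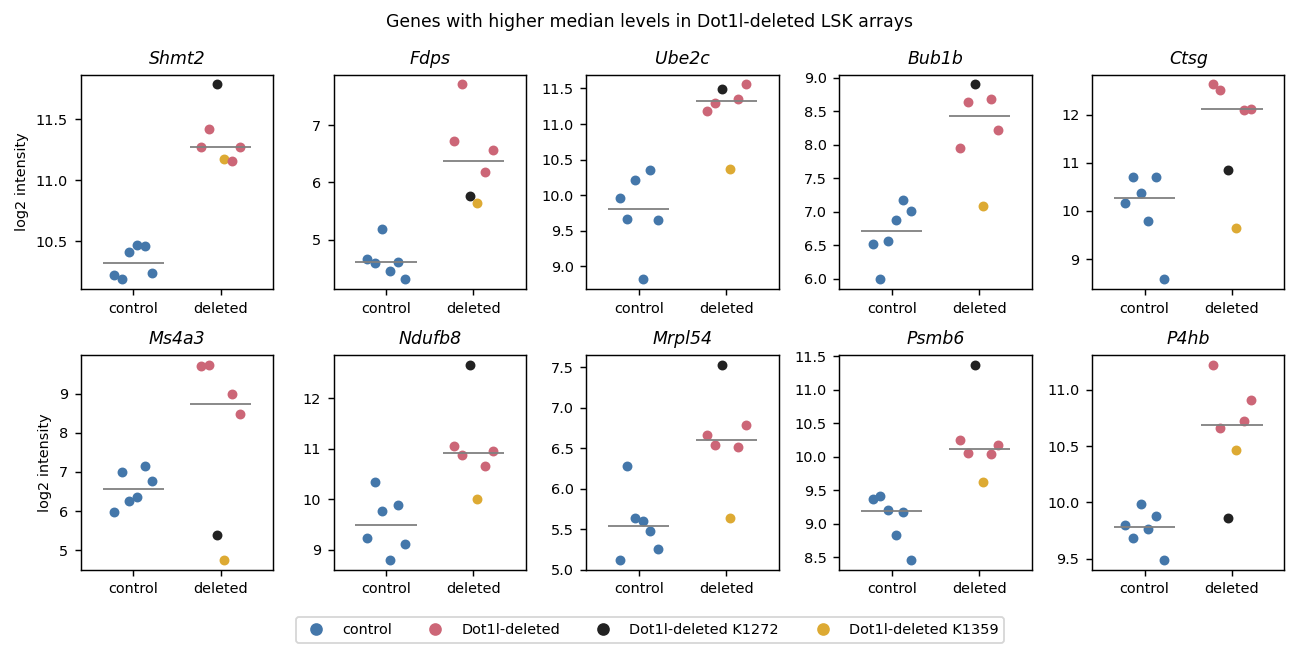
The plot of higher genes shows the log2 level of Shmt2, Fdps, Ube2c, Bub1b, Ctsg, Ms4a3, Ndufb8, Mrpl54, Psmb6 and P4hb on each of the 12 LSK arrays, with the group medians as lines and K1272 and K1359 marked. Shmt2 and Ube2c have all 6 deleted arrays above all controls, whereas for Ctsg the lowest deleted array is K1359, at 9.65.

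Genes of mitochondrial energy metabolism and translation were higher as lists by a small amount. Of 73 oxidative phosphorylation genes 66 were higher over 12 arrays, 17 at an unadjusted p under 0.05 and none lower at that threshold, with a median of 0.47. Over 10 arrays 72 were higher, 50 at that threshold, with a median of 0.72 (0.42 without K1272 alone and 0.72 without K1359 alone), and none was called. K1272 ran with its group here, at a list mean of 0.84 against 0.65 to 0.93 on the 4 other deleted arrays and -0.64 to 0.45 on controls, and K1359 was -0.53. Ndufb8, a subunit of complex I, had 8.80, 9.50 and 10.35 in controls and 10.01, 10.92 and 12.65 after deletion, with a fold change of 1.51 ± 0.40 over 12 arrays and 1.36 ± 0.28 over 10 (adjusted p 0.0763). Atp5l, of the ATP synthase, was 1.35 ± 0.36, and Ndufab1, of complex I, was 1.40 ± 0.39, with 7.52, 8.48 and 9.10 in controls and K1359 inside their range at 8.45. Of 74 mitochondrial ribosome genes 56 were higher over 12 arrays, 13 at an unadjusted p under 0.05, with a median of 0.48. Their mean was 0.59 to 0.91 on the 4 other deleted arrays. K1272, at 0.15, and K1359, at -0.41, lay inside the control range of -0.42 to 0.44. Over 10 arrays 72 were higher with a median of 0.81 (0.57 without K1272 alone and 0.57 without K1359 alone), and Mrpl12 and Mrpl40 were called, at 1.25 and 1.62. Mrpl54 was 1.05 ± 0.29 over 12 arrays.

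Genes of the TCA cycle had a median of 0.029 over 12 arrays, 0.34 without K1272, 0.20 without K1359 and 0.52 over 10 arrays. It was below 0 without any 1 of 5 other arrays, lowest at -0.066 without K1422. K1272 had a list mean of -1.82. Fh1, which encodes fumarate hydratase, was called over 10 arrays at 1.40 (adjusted p 0.0204), and Idh1, the cytosolic isocitrate dehydrogenase that makes NADPH, had 5.94, 7.65 and 8.18 in controls and 8.82 to 10.15 on the 4 other deleted arrays, at 2.07 ± 0.42 (adjusted p 0.0719).

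Protein quality control genes were higher on the 4 other deleted arrays. Of 40 proteasome genes 30 were higher over 12 arrays, 5 at an unadjusted p under 0.05, with a median of 0.33, and over 10 arrays all 40 were, 32 at that threshold, with a median of 0.74 (0.51 without K1272 alone and 0.46 without K1359 alone). Their mean was 0.66 to 0.84 on the 4 other deleted arrays, -0.27 on K1359 and -0.83 on K1272, against -0.35 to 0.27 on controls. Psmb6, a catalytic subunit of the core particle, had 8.46, 9.19 and 9.41 in controls and 9.62, 10.12 and 11.37 after deletion, without overlap, and its fold change was 1.18 ± 0.28 over 12 arrays and 1.06 ± 0.19 over 10 (adjusted p 0.0486). Psmd2, of the regulatory particle, had 8.12, 8.70 and 8.94 in controls and 9.44 to 9.74 on the 4 other deleted arrays, but was below all controls on K1359, at 7.99, and its fold change was 0.70 ± 0.30 over 12 arrays and 0.93 ± 0.17 over 10 (adjusted p 0.0483). Its other probe set was not higher over either set of arrays.

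Of 38 genes of folding in the endoplasmic reticulum 24 were higher over 12 arrays, 6 at an unadjusted p under 0.05 and 1 lower, with a median of 0.20, or 0.37 without K1272, 0.23 without K1359 and 0.60 over 10 arrays. P4hb, a protein disulfide isomerase, had 9.49, 9.78 and 9.99 in controls and 9.86, 10.69 and 11.22 after deletion, where K1359, at 10.47, was above all controls and K1272, at 9.86, was not. Its fold change was 0.87 ± 0.22 over 12 arrays (adjusted p 0.518) and 1.11 ± 0.15 over 10 (adjusted p 0.0204). Sdf2l1, a cofactor of ER chaperones, had 6.42, 7.01 and 7.68 in controls, 8.56 to 9.27 on the 4 other deleted arrays, 11.47 on K1272 and 6.14 on K1359, and was called over 10 arrays at 1.87 ± 0.27 (adjusted p 0.0221). Ribosome biogenesis genes had a median of 0.083 over 12 arrays, 0.33 without K1272, 0.14 without K1359 and 0.43 over 10, where 50 of 55 were higher, 24 at an unadjusted p under 0.05. The nucleoside kinase gene Nme1 was 1.14 ± 0.36 over 12 arrays. Cytosolic heat shock genes had a median of -0.044, which turned to 0.37 without K1272, whose list mean was -2.10, and to 0.09 with the upper quartile as a covariate. The 44 genes of the cytosolic ribosome, by contrast, had a median of 0.084 over 12 arrays and 0.082 over 10.

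**Figure D5:**
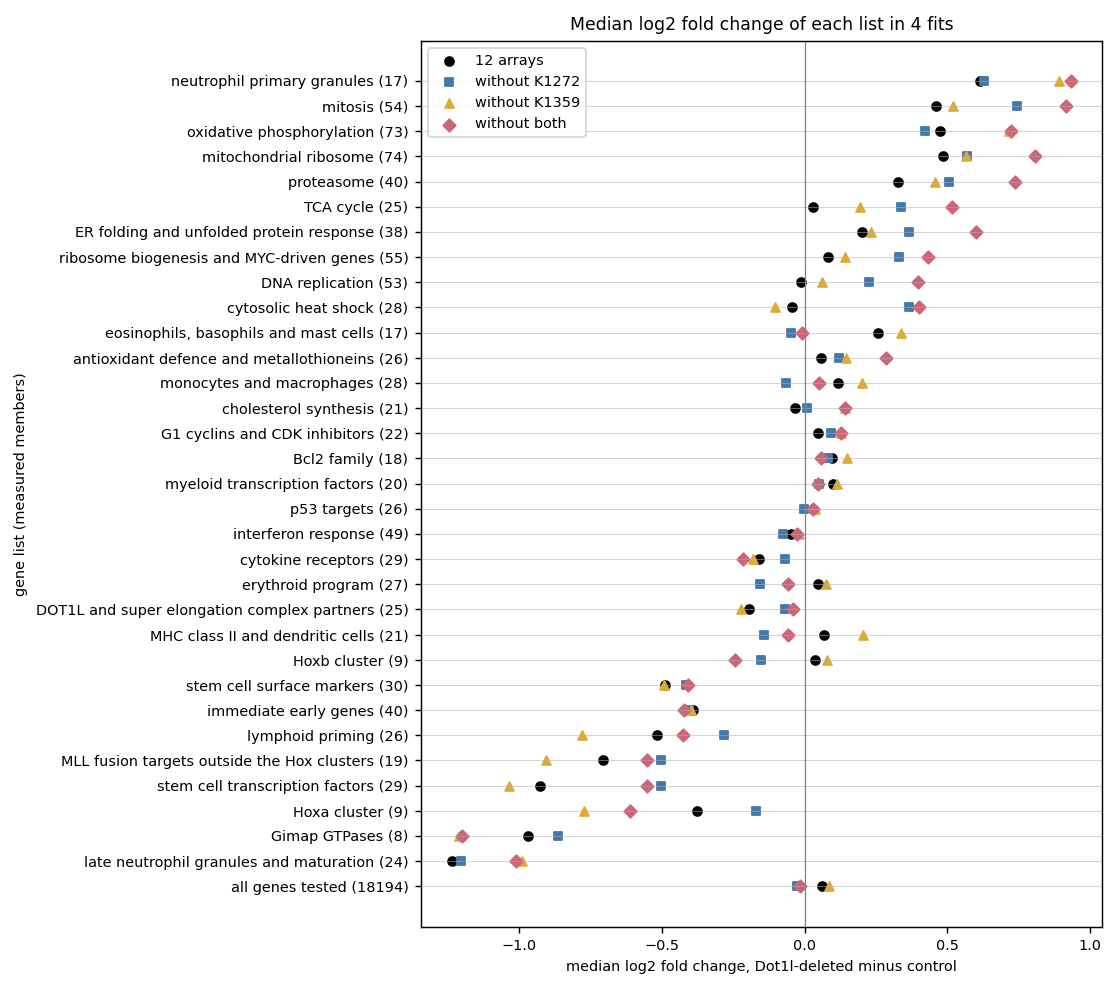
The plot of list medians shows the median log2 fold change, deleted minus control, of each described gene list over 12 arrays, without K1272, without K1359 and over 10 arrays, beside the median of all 18194 genes. Late neutrophil genes lie lowest over 12 arrays, at -1.23, and the mitosis list lies at 0.46 over 12 arrays and at 0.91 over 10.

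Among genes of cholesterol synthesis Fdps alone was called over 10 arrays, and the others had fold changes in both directions. The median of 21 genes was -0.034 over 12 arrays, with a sign that turned with the upper quartile as a covariate (0.13) and over 10 arrays (0.14), where 14 were higher, 2 of them at an unadjusted p under 0.05, and 7 lower, 2 of them at that threshold. Tm7sf2, a sterol reductase gene, had 3.67, 4.05 and 4.08 in controls, 4.12 to 5.55 on the 4 other deleted arrays, 7.63 on K1272 and 4.02 on K1359, with a fold change of 1.10 ± 0.52 over 12 arrays and 0.71 ± 0.25 over 10 (adjusted p 0.268). Srebf2, the transcription factor that drives this pathway, had the opposite sign, with 8.16, 9.19 and 9.58 in controls, 7.48, 7.82 and 8.89 after deletion and a fold change of -0.96 ± 0.32 (unadjusted p 0.00975). Among antioxidant genes the metal-binding protein gene Mt1 had 5.15, 6.16 and 6.86 in controls, 7.65 to 9.22 on the 4 other deleted arrays, 9.14 on K1272 and 5.45 on K1359, and was called over 10 arrays at 2.37 ± 0.37 (adjusted p 0.0325). The list of 26 genes had a median of 0.058 over 12 arrays, 0.12 without K1272, 0.14 without K1359 and 0.28 over 10 arrays, where 20 were higher, 5 of them at an unadjusted p under 0.05.

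Immediate early genes, which dissociation of tissue and cell activation induce, were lower in 30 of 40 cases over 12 arrays, 7 at an unadjusted p under 0.05, with a median of -0.39, or -0.40 without K1272, -0.40 without K1359 and -0.42 over 10 arrays. Their mean ranged from -0.58 to 0.87 over controls, highest on control K1581, which was also highest for late neutrophil genes, and from -0.76 to -0.21 over deleted arrays. The chemokine gene Ccl3 had 3.05, 7.17 and 9.85 in controls and 2.95, 3.40 and 5.85 after deletion, with a fold change of -2.85 ± 0.93, and Nfkbiz, an inducible regulator of NF-kB, was -1.14 ± 0.38. Interferon response genes, of interest because pIpC acts through interferon, had a median of -0.048 over 49 genes, with 3 higher and 2 lower at an unadjusted p under 0.05. Ifitm2, an antiviral membrane protein, was 0.72 ± 0.28 and Psmb8, the immunoproteasome subunit, was 0.90 ± 0.34. Both groups had received pIpC.

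Genes for proteins that work with DOT1L showed no common shift beyond K1272. The median of 25 genes was -0.20 over 12 arrays and -0.068 without K1272, and 1 gene, Mllt10, was lower at an unadjusted p under 0.05 over 12 arrays, a share near that of all genes. Mllt10, the AF10 cofactor that lets DOT1L add more methyl groups, had 7.18, 7.99 and 9.46 in controls, 5.69 to 7.71 on the 4 other deleted arrays, 4.04 on K1272 and 8.45 on K1359, with a fold change of -1.49 ± 0.66 over 12 arrays and -1.32 ± 0.49 over 10 (adjusted p 0.293). Mllt3, or AF9, which binds acetylated histones, was -1.29 ± 0.69 over 12 arrays and -0.71 ± 0.26 over 10 (adjusted p 0.289). On K1272 the list mean was -1.43, while the 4 other deleted arrays, at -0.14 to 0.076, lay inside the control range of -0.23 to 0.084. Over 10 arrays the median was -0.041, with 3 genes higher and 2 lower at an unadjusted p under 0.05.

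Several of the largest changes among the 90 calls lay outside the described lists. Tgfbi, a matrix protein induced by TGF-beta, had 5.22, 5.97 and 6.67 in controls, 8.16 to 9.17 on the 4 other deleted arrays and 7.01 on K1359, which was also above all controls. The estimated fold change was 1.86 ± 0.58 over 12 arrays, 2.36 without K1272 (adjusted p 0.17) and 2.71 ± 0.29 over 10 (adjusted p 0.0204), and its 3 other probe sets were also higher. Nrp1, a coreceptor of semaphorins and VEGF, had 3.47, 4.14 and 6.09 in controls and 6.21 to 7.89 on the 4 other deleted arrays, and was called at 2.94 ± 0.53 (adjusted p 0.0483), with 3 of 3 other probe sets higher. It was lowest of all LSK arrays on K1359, at 2.77, and over 12 arrays its fold change was 1.63 ± 0.87. Gpc3, a cell surface proteoglycan of the glypican family, had 4.82, 5.50 and 7.36 in controls. It was 8.0 to 8.51 on the 4 other deleted arrays. K1272, at 4.18, lay below all controls, and K1359, at 5.44, lay inside their range. The Gpc3 fold change was 2.55 ± 0.41 over 10 arrays (adjusted p 0.0349) and 1.40 ± 0.75 over 12. Lpl, or lipoprotein lipase, was 2.42 ± 0.43 over 10 arrays (adjusted p 0.0486), although its other probe set was not higher there. Over 12 arrays Lpl was 1.67 ± 0.56, and K1272 and K1359 both lay inside its control range. Ptgr1, a prostaglandin reductase, was 1.93 ± 0.27 over 10 arrays (adjusted p 0.0204) and 0.92 ± 0.62 over 12. It was below all controls on K1272 and K1359.

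Klf3, a Kruppel-like repressor of B cell and red cell genes, was lower on 5 of 6 deleted arrays than on any control, with 8.46, 8.89 and 9.43 in controls and 6.06, 7.48 and 8.55 after deletion. The fold change came to -1.52 ± 0.35 over 12 arrays and -1.47 ± 0.20 over 10 (adjusted p 0.0204), but of its 6 other probe sets 4 were lower over 10 arrays. Calcoco1, a nuclear receptor coactivator, was lower on all 6 deleted arrays, at 9.20, 9.55 and 9.81 in controls and 5.54, 7.74 and 9.18 after deletion, and was called at -1.64 ± 0.23 over 10 (adjusted p 0.0204), although its 1 other probe set was not lower over 12 arrays. P2ry14, a receptor of UDP-glucose on stem and progenitor cells, had 7.03, 7.47 and 8.07 in controls, 5.10 to 6.33 on the 4 other deleted arrays and 8.12 on K1359. It was called at -1.65 ± 0.27 (adjusted p 0.0375). Zfp608, a zinc finger protein gene, was -1.54 ± 0.25 (adjusted p 0.0368), and the potassium channel gene Kcnk5 was -1.64 ± 0.28 (adjusted p 0.0392).

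Whether an effect differed between LSK cells and GMP was tested directly over all 21 arrays, and it did so for 6 genes (0.033%). Fold changes were 1.79 in LSK cells and -2.12 in GMP for Fdps, 1.96 in LSK cells and -1.52 in GMP for Emc8, 0.43 in LSK cells and -2.18 in GMP for Wrap53, a protein of the telomerase complex, -0.72 in LSK cells and 2.67 in GMP for Dtx3l, a ubiquitin ligase of the DNA damage response, -1.31 in LSK cells and 1.85 in GMP for the F-box gene Fbxl12 and -0.59 in LSK cells and 2.54 in GMP for Smurf2, a ubiquitin ligase of TGF-beta signalling. Fdps had an LSK effect minus GMP effect of 3.92 ± 0.55 (SE, adjusted p 0.0131), Emc8 of 3.49 ± 0.56 (adjusted p 0.0196) and Wrap53 of 2.62 ± 0.39 (adjusted p 0.0160). The difference was negative for Dtx3l, at -3.39 ± 0.54 (adjusted p 0.0196), for Fbxl12, at -3.17 ± 0.53 (adjusted p 0.0297), and for Smurf2, at -3.13 ± 0.54 (adjusted p 0.0331). The count depended on single arrays. Leaving out LSK arrays gave 15 (K1272) and 21 (K1359), leaving out control GMP arrays gave 3 (K1603) and 10 (K1601), and leaving out deleted GMP arrays gave 1 (K1190) and 13 (K1359). The test counted the close deleted GMP arrays K1190 and K1272 as separate replicates. With these 2 averaged it called 1 gene, or 2 when LSK K1272 was also left out. No gene of the Hoxa, lymphoid, mitosis or mitochondrial lists was among the 6, so no effect on those lists was shown to be particular to LSK cells.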

How the data were processed

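RNA of sorted cells was hybridised to Affymetrix mouse arrays, as the labels' protocols state. The authors deposited 1 table of intensities for 45101 probe sets. RMA is named in the submitters' processing notes, without a version. Array medians of 25.4 to 31.48 over the LSK arrays show that the deposited intensities are linear, not log2 values. The genome build and any scan batch remain not given in the sources used here, and no scanner files were used, so signal over background is unknown. The log2 of each intensity was taken with no pseudocount or further normalization. A single gene symbol was given for 34958 probe sets, several for 932 and none for 9211. Genes with several probe sets were read from the brightest on average over all 21 arrays, which left 18194 genes, and names came from the platform annotation, of which 34754 Entrez identifiers matched RefSeq genes on GRCm38.p6.

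Limma 3.58.1 in R 4.3.3 compared the 6 deleted with the 6 control LSK arrays, using moderated variances, and p-values were adjusted by Benjamini-Hochberg across the 18194 genes, with a threshold of 0.05. Fits without K1272, without K1359 and without both were made alike, and the difference from GMP used 4 group means. The fit was tested on simulated data. There were 55 gene lists, of which 32 were chosen for description. Cytokine receptors, G1 cyclins and CDK inhibitors and the Bcl2 family, among the 32, enter the text above only through single members. Their medians were -0.16, 0.046 and 0.094 over 12 arrays and -0.21, 0.13 and 0.058 over 10. The B lineage, T and NK cell and cytosolic ribosome lists are outside the 32 and are given beside them. The members, lists and rule for naming genes were chosen with earlier results of these data known, and lists were given no test. The rule named Dot1l, 12 genes each way with the smallest p over 12 arrays, up to 15 called genes each way with the largest change over 10 arrays, the up to 4 smallest p-values in each described list, and sort markers, Hoxa9, Hoxa10, Meis1 and Xist. Called members of a list outside this rule, such as Cst7, Cdc6 and Fh1, were named after their values were seen. Promoters came from a RefSeq table, with the first listed start of each gene. Alternatives were quantile normalization, median centring, the upper quartile or Xist as a covariate, leaving out dim genes, other ways to pick a probe set, trended variances, array weights, a fold limit of 2, the GMP arrays in the fit, and each array left out.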

Additional observations from a re-analysis of the deposited data

Results flagged for a closer look

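Of 264 groups of 6 arrays examined, over genes, lists and array measures named in the text, 31 (11.7%) held an array whose gap to its nearest neighbour exceeded 0.625 of the group's range. Chance alone gives about 1 in 20 such groups, and groups that share an array are not independent. Most of the deleted arrays so found were K1272. It stood apart in its upper quartile, at 6.185, and in its mean Spearman correlation with controls, at 0.6495. It was the lowest deleted array for Car2, at 7.14, Cd34, at 5.20, Cd48, at 4.61, Gfi1, at 3.84, Incenp, at 10.66, and Mllt3, at 4.27. It was the highest for Emc8, at 11.46, Ifitm2, at 12.74, Prg2, at 6.39, and Psmb6, at 11.37. By list mean relative to controls it was lowest for DOT1L partners, at -1.43, and for cytosolic heat shock, at -2.10.

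K1359 was the lowest deleted array for Nme1, at 8.76, Psmd2, at 7.99, Thy1, at 5.69, and Ube2c, at 10.37, and by list mean for oxidative phosphorylation, at -0.53, and for eosinophils, basophils and mast cells, at -0.20. Deleted K1190 was lowest for Procr, at 6.99, and deleted K1421 highest for Slamf1, at 4.22. Among controls, K1581 was highest for Atp5l, at 8.59, and Mcpt8, at 7.01. Control K1604 was highest for Hoxb4, at 8.71, and lowest for the erythroid list, at -0.62. Control K1602 was lowest for Idh1, at 5.94, for the mitosis list, at -0.62, and for DOT1L partners, at -0.23. Control K1553 was lowest for Lax1, at 4.59, and Mpo, at 12.22.

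The test of the difference between LSK and GMP effects singled out 6 genes. The LSK effect minus the GMP effect was positive in Emc8 (3.49), Fdps (3.92) and Wrap53 (2.62), and negative in Dtx3l (-3.39), Smurf2 (-3.13) and Fbxl12 (-3.17).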

How the results depend on the processing

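The call of 0 genes over 12 arrays became 1 with the upper quartile as a covariate, which was Shmt2, 1 with every probe set tested and 36 with array weights. Leaving out 1 array at a time gave 0 to 1, namely Shmt2 without deleted K1272 and Lax1 without control K1553, and leaving out both K1272 and K1359 gave 90. That count of 90 became 36 with the GMP arrays in the fit, 8 with the upper quartile as a covariate, 59 without probe sets of the suffixes _s_at, _x_at and _a_at, 55 with trended and robust variances, 310 with array weights and 0 with Xist as a covariate, alternatives that were added after the data were seen. Leaving out 1 of the 10 arrays gave 0 to 162, with 47 without control K1603, 57 without control K1604, 39 without deleted K1421 and 33 without deleted K1422. The 6 genes that differed between LSK and GMP became 80 without LSK K1272 and K1359, 1 with the close GMP arrays K1190 and K1272 averaged and 2 when LSK K1272 was also left out, and leaving out 1 array at a time gave 1 to 21. No replicate block could be fitted for the LSK comparison, since its groups share 0 K numbers. With the K number as a replicate block the difference from GMP gave 2 genes. Same-numbered LSK and GMP arrays did not deviate together, with correlations of -0.397 to 0.272 over 9 numbers, so the numbers were not taken to pair the arrays.

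Of the 162 genes under the naming rule, 158 kept their direction under every alternative run, up to 25 each. Most of them were picked for a small p or a large change on these same arrays, which the alternatives fit again. A kept direction is therefore largely fixed by that choice and is given as a description. Atp5g1 was -0.45 without probe sets of the suffixes _s_at, _x_at and _a_at. Hspa8 was 1.04 under that setting and 0.089 as the mean of its probe sets. With 1 array left out at a time Il7r ran from -0.62 to 0.21 and Xist from -1.89 to 0.046. The cause of these changes was not tested. The number of arrays and the unknown signal over background limit what dim genes can show.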

Other observations

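Several gene lists that the report does not describe had 12-array medians that lay nearer 0 once K1272 was left out. The 9 measured genes of the list called sort markers had a median fold change of -0.62 over 12 arrays and -0.18 without K1272. It was -0.65 without K1359 and -0.16 over 10, with K1272 at a list mean of -2.25. Autophagy and lysosome genes, 32 in all, had -0.40, -0.092, -0.31 and -0.026 in the same order, and the 9 phagocyte NADPH oxidase genes had -0.38, -0.050, -0.38 and 0.035. The 12 heme synthesis genes had a median fold change of 0.24 over 12 arrays and 0.23 over 10, with 2 and 3 genes higher and none lower at an unadjusted p under 0.05. The 14 DNA methylation genes had 0.12 and 0.09, with 5 higher and 1 lower at that threshold over 10 arrays. Glycolysis genes had -0.12 over 12 arrays and 0.24 over 10, and fatty acid oxidation genes -0.02 and 0.18. For both, K1272 was low, with list means of -1.03 and -1.60. Genes of the PAF complex and H2B ubiquitination, which acts upstream of DOT1L, had -0.29 over 12 arrays and 0.15 over 10, where K1272 had a list mean of -2.06. The MLL and COMPASS complexes had -0.25 and -0.09, and Polycomb complexes -0.18 and -0.07.

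Megakaryocyte and platelet genes had a median of -0.07 over 12 arrays and -0.22 over 10, with 2 of 28 lower at an unadjusted p under 0.05 over 10 arrays. Niche adhesion and homing genes had -0.26 and -0.19, and TGF-beta and BMP pathway genes -0.19 and -0.24. Wnt pathway genes had -0.01 and -0.07. Imprinted genes had 0.11 and -0.07, a sign that turned without K1272.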
